A study of Mus musculus with 4 samples.

Results

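Growth factor receptors and their ligands were examined in ribosome-protected RNA from proliferating primary mouse myoblasts. The set consisted of 10 genes, taken by name from the 55573 genes of the table, a choice made with earlier results of these data known. It held the 4 fibroblast growth factor (FGF) receptors Fgfr1, Fgfr2, Fgfr3 and Fgfr4, the hepatocyte growth factor (HGF) receptor Met, the epidermal growth factor receptor Egfr, the platelet-derived growth factor (PDGF) receptors Pdgfra and Pdgfrb, and the ligand genes Fgf2 and Hgf. All 10 were in the table, and 7 of them reached the mean of 1 RPKM (reads per kilobase of gene, divided by a library size) over the 4 libraries that was required for a test. Fgfr2, Fgfr3 and Hgf did not.

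Cells had been dissociated from hind-limb muscle of mice aged 3 weeks, and were collected on day 2 of proliferation. The labels state an FGF at 10 ug/ml in the medium of both groups without naming which one, a unit that could not be checked against another source here, beside fetal bovine serum, so receptors of this family were measured with a ligand supplied. Of the 4 libraries, 2 were labelled WT and 2 KO. In the study's methods the KO mice were Pax7 CreERT2/+;eIF5A f/f and received tamoxifen. The WT controls are described in different places as Pax7 CreERT2/+, as Pax7 +/+;eIF5A f/f, or as littermates, so whether they carried Cre or the floxed allele is not settled here. This Cre is driven by Pax7, hence cells outside the satellite cell lineage keep eIF5A in cultures of both groups. How many mice stand behind a library was not given in the sources used here, and p-values therefore measure the spread between libraries, which may be technical.

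The receptors are single-pass membrane tyrosine kinases. Binding of a ligand pairs them, and phosphorylated tyrosines of their tails then engage adaptors that feed the Ras and ERK cascade and the PI3K and Akt branch. In muscle, FGF and HGF are mitogens of satellite cells: FGF2 signals with heparan sulfate as a coreceptor, and HGF is released from the matrix on injury and binds Met. Fgfr4 and Met are known as genes of the myogenic lineage, Pdgfra as a marker of the fibro-adipogenic progenitors that lie between fibres, and Pdgfrb as a marker of pericytes and other mural cells. The set thus spans receptors of the cells the culture is named for and of the stromal cells that grow out with them.

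The factor named in the KO label, eIF5A, helps ribosomes through stretches of consecutive prolines, so the coding sequences of the set were searched for them. The search covered proline codons in frame (CCN, sense strand) in the longest annotated coding sequence of each gene (GENCODE M21, GRCm38). A run of 3 or more (CCN 3 times in a row) was found in 0 of the 10 genes, against 25.8% of the 9841 tested coding genes with a complete coding sequence. The longest run was 2 in 8 genes and 1 in Pdgfra and Hgf. The 4 FGF receptors each carry a proline pair in exon 13, in the part of the gene that encodes the kinase. These windows of 27 bases are shown because they let the gene with the lowest fitted value of the set, Fgfr4, be compared with its relatives at this pair. Capitals mark the 2 proline codons.
Fgfr1, residues 589 to 590, chr8:25570769-25570795, plus strand: gcccggaggCCTCCTgggctggagtac
Fgfr2, residues 600 to 601, chr7:130177780-130177806, minus strand: gcccggaggCCACCTggcatggagtac
Fgfr3, residues 568 to 569, chr5:33734106-33734132, plus strand: gcgcggcggCCTCCAggcatggactac
Fgfr4, residues 564 to 565, chr13:55166155-55166181, plus strand: gcccggcgcCCCCCAggccctgatctc

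Fgfr4 has another pair in exon 10 and another in exon 16, which makes 3, while Fgfr1 has 1, Fgfr2 has 2 and Fgfr3 has 6. Their windows, with the same marking, are as follows, and the pair near the start of the Fgf2 coding sequence, in exon 1, is added as that of the ligand.
Fgfr4, residues 440 to 441, chr13:55161460-55161486, plus strand: tccagcggcCCGCCCttgctcacgggc
Fgfr4, residues 708 to 709, chr13:55167506-55167532, plus strand: atggagcggCCCCCAaactgcccctca
Fgf2, residues 21 to 22, chr3:37348901-37348927, plus strand: gccgccttcCCACCAggccacttcaag

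Met, Egfr and Pdgfrb hold 3, 4 and 3 pairs. The table gives reads per gene and not per position, so ribosome density at these codons was not measured here. The coding sequences range from 44.7% GC in Hgf to 58.7% in Fgfr3 and Fgfr4, around a median of 53.1% for tested coding genes.

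Reads were few. Whole reads could be recovered from the deposited RPKM values and came to between 642429 and 704006 a library, of which coding genes held 41.5% and 33.9% in WT and 65.4% and 59.2% under the KO label. The set ranged from 4 reads over the 4 libraries for Fgfr2 and for Fgfr3 to 1566 for Pdgfra, with 684 for Fgfr1 and 543 for Pdgfrb. The targeted gene was checked first. Eif5a had 34.9 and 65.2 RPKM in WT and 60.3 and 59.4 RPKM under the KO label, a log2 fold change of 0.32 with a standard error (SE) of 0.48 (unadjusted p = 0.534, adjusted p = 0.839 by limma) that became -0.12 without WT library 1. The label was thus not backed by a lower Eif5a signal, and each direction here is that of the KO label relative to the WT label.

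No gene of the set passed the test between the groups. At an adjusted p under 0.05 by limma over 11363 tested genes, 0 of the 7 tested members were called, where 0.0968% of all tested genes were called lower and 0.0088% were called higher. When p was not adjusted, Fgfr4 was the 1 member under 0.05, lower under the KO label, where 4.46% of all tested genes passed as lower and 2.86% as higher. That split, 507 genes lower and 325 higher, became 98 and 1640 with every library scaled to the same sum of RPKM, and 620 and 220 with the same sum over coding genes. By limma-voom on the recovered reads, 0 of the 7 were called at an adjusted p under 0.05, where 0.425% of 9179 tested genes were called lower, and Fgfr4 was again the 1 member with an unadjusted p under 0.05, where 6.66% of genes passed as lower. Values of the groups did not overlap for Fgfr4 and Met, which were lower, and for Pdgfra, which was higher. The background for this is 20.3% of tested genes without overlap in the lower and 20.1% in the higher direction. The median log2 fold change of the 7 was -0.44, with 5 below 0 and 2 above, against a median of 0.00026 over all tested genes, and it was -0.06 with WT library 1 left out, -0.70 with WT library 2 left out and -0.09 for the members with a mean of at least 5 RPKM.

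**Figure D1:**
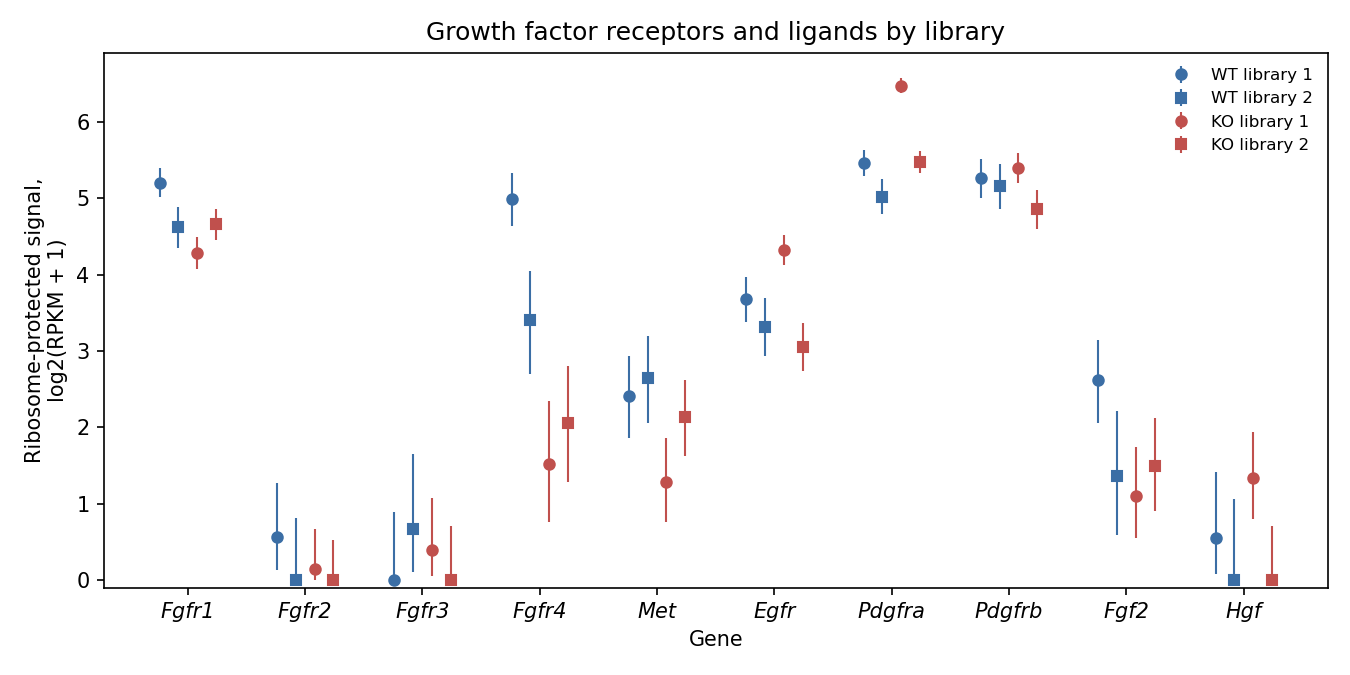
Ribosome-protected signal of the 10 genes in each library on a log2(RPKM + 1) axis, WT in blue and the libraries labelled KO in red, circles for library 1 and squares for library 2. Bars are exact 95% Poisson intervals of the reads and cover counting error only. Fgfr4 lies at 30.9 and 9.59 RPKM in WT and at 1.87 and 3.15 RPKM under the KO label, while Fgfr2, Fgfr3 and Hgf each have 2 libraries at 0.

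The lowest log2 fold change of the 7 tested genes was that of an FGF receptor. Fgfr4 (ENSMUSG00000005320; chr13:55152640-55168759, plus strand, 18 exons) had 30.9 RPKM in WT library 1 and 9.59 in WT library 2, against 1.87 and 3.15 RPKM in KO libraries 1 and 2. All of this rests on 97 reads, 66 and 16 in WT and 6 and 9 under the KO label. Both WT values lay above both KO values, and the exact 95% Poisson interval of WT library 2 (5.48 to 15.6 RPKM) met that of KO library 2 (1.44 to 5.97 RPKM) but not that of KO library 1 (0.685 to 4.07 RPKM). The WT libraries themselves differed by 3.22-fold.

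Fgfr4 averaged 20.2 ± 15.1 RPKM in WT and 2.51 ± 0.904 RPKM under the KO label (SD, n = 2 each), which is 8.08-fold lower on the linear scale. In log2(RPKM + 1), a scale that compresses the changes of weakly read genes, the difference was -2.41 with an SE of 0.60 and a 95% interval from -3.90 to -0.93. Its unadjusted p was 0.00747 and its adjusted p 0.604 by limma. Of the 9877 coding genes tested, 12 (0.121%) had a lower fitted value. Among all 11363 tested genes, noncoding ones included, Fgfr4 ranked 206 from the lowest. In WT the mean of Fgfr4 exceeded that of 89.2% of coding tested genes, and under the KO label that of 29.2%. Without WT library 1 the difference was -1.62 (unadjusted p = 0.0572 by limma) and without WT library 2 it was -3.21 (unadjusted p = 0.0135 by limma). Leaving out KO library 1 or KO library 2 gave -2.15 and -2.68, with unadjusted p of 0.137 and 0.0929 by limma. By limma-voom on the reads it was -2.82 (unadjusted p = 0.000449, adjusted p = 0.0777).

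Fgfr1 (ENSMUSG00000031565; chr8:25513654-25575718, plus strand, 18 exons), the FGF receptor of the widest known use among cell types, was read far more deeply, with 684 reads. Its signal was 35.9 and 23.6 RPKM in WT and 18.5 and 24.3 RPKM under the KO label. KO library 2 lay between KO library 1 and WT library 1 and just above WT library 2, so the groups overlapped. The means of 29.8 ± 8.70 and 21.4 ± 4.09 RPKM (SD, n = 2 each) gave a log2 fold change of -0.44 with an SE of 0.43 (95% interval -1.51 to 0.63, unadjusted p = 0.350, adjusted p = 0.743 by limma). It came to -0.15 with WT library 1 left out, -0.73 with WT library 2 left out and -0.25 with KO library 1 left out.

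Fgfr2 and Fgfr3 were near the limit of detection. Fgfr2 (chr7:130162451-133123350, minus strand) had 3 and 0 reads in WT and 1 and 0 under the KO label, which is at most 0.482 RPKM. For Fgfr3 (chr5:33721674-33737068, plus strand) the reads were 0 and 2 in WT and 2 and 0 under the KO label, with a highest value of 0.593 RPKM. A count of 0 allows a level of up to 3 reads, which is worth 0.320 to 0.617 RPKM for Fgfr2 and 0.462 to 0.890 RPKM for Fgfr3 in these libraries. No fold is given for either gene, since all 8 values lie at or under 3 reads. Of the 26-base windows of their coding sequences, 6.00% of Fgfr3 and 5.73% of Fgfr1 occur in the transcripts of another gene on either strand, and 0 windows of Fgfr2 do. The matching genes include the other receptor and, for each, an overlapping gene on the opposite strand. The share between Fgfr1 and Fgfr3 alone was not separated. For Fgfr4 this share was 0.211%.

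The makeup of the FGF receptor signal was compared as shares within each library, which do not depend on how the libraries were scaled. Fgfr4 made up 45.9% and 28.3% of the summed FGF receptor RPKM in WT, and 8.97% and 11.5% under the KO label. Fgfr1 took 53.4% and 69.9% in WT against 89.0% and 88.5%, and Fgfr2 and Fgfr3 stayed at or below 1.75% each. The mean share of Fgfr4 was 37.1% ± 12.4 in WT and 10.2% ± 1.75 under the KO label (SD, n = 2 each), 26.9 percentage points apart. By exact two-sided permutation this gave p = 0.333, the smallest possible with 2 libraries a group, and 0.556 after adjustment over the 5 shares compared.

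Counted in reads, Fgfr4 held 23.3% of FGF receptor reads in WT library 1 (95% Wilson interval 18.8 to 28.6%) and 12.5% in WT library 2 (7.84 to 19.3%). It held 3.43% (1.58 to 7.28%) and 4.43% (2.35 to 8.21%) in the libraries labelled KO. The interval of WT library 2 met that of KO library 2 and not that of KO library 1. The RPKM share depends on the gene length the authors used, which is 9875 bases for Fgfr1 and 3542 for Fgfr4 although the coding sequences, where ribosomes sit, are of like length (2502 and 2400 bases). Per coding base, an alternative chosen after seeing the data, the share of Fgfr4 was 24.1% and 13.0% in WT and 3.57% and 4.61% under the KO label. The summed RPKM of the 4 FGF receptors was 67.3 and 33.8 in WT and 20.8 and 27.5 under the KO label.

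**Figure D2:**
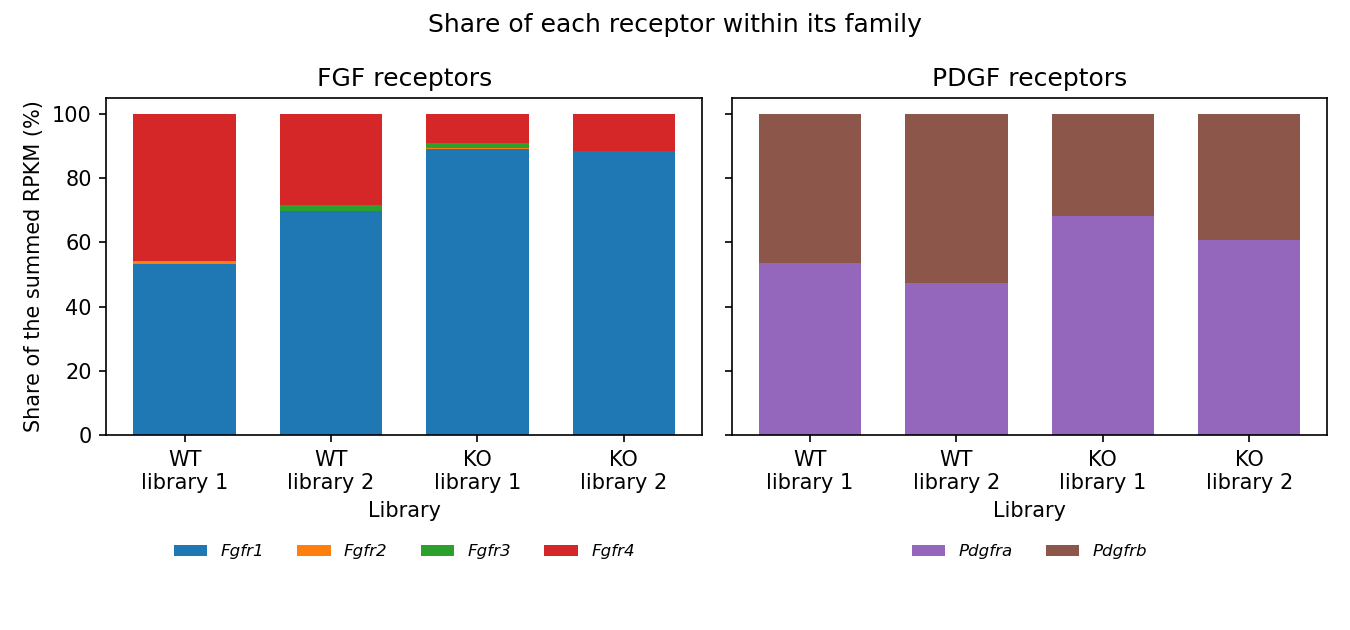
Stacked bars of the share (%) of each receptor in the summed RPKM of its family, per library, FGF receptors on the left and PDGF receptors on the right. Fgfr4 takes 45.9% and 28.3% of the FGF receptor signal in the WT libraries and 8.97% and 11.5% in those labelled KO, and Pdgfra takes 53.6% and 47.5% of the PDGF receptor signal in WT and 68.1% and 60.9% under the KO label.

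Met (ENSMUSG00000009376; chr6:17463800-17573980, plus strand, 20 exons), which binds HGF, gave 4.32 and 5.25 RPKM in WT and 1.44 and 3.39 RPKM under the KO label, from 20, 19, 10 and 21 reads. The RPKM values did not overlap, whereas the reads did, with 21 in KO library 2 and 19 in WT library 2. The authors divided by library sizes of 602863 and 471136 for WT and of 906990 and 807705 for the libraries labelled KO. With means of 4.79 ± 0.659 and 2.41 ± 1.38 RPKM (SD, n = 2 each), the log2 fold change was -0.82 with an SE of 0.45 (95% interval -1.92 to 0.28, unadjusted p = 0.118, adjusted p = 0.691 by limma). It came to -0.40 without KO library 1 and to -1.24 without KO library 2.

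The ligand of Met could hardly be seen. Hgf (chr5:16553495-16620152, plus strand) had 2 and 0 reads in WT and 10 and 0 reads in KO libraries 1 and 2, and all reads above the floor of 3 thus came from 1 library. That library gave 1.53 RPKM (exact 95% Poisson interval 0.736 to 2.82), and 3 reads would be worth 0.460 to 0.886 RPKM. Fgf2 (chr3:37348346-37410108, plus strand, 4 exons) had 5.14 and 1.56 RPKM in WT and 1.14 and 1.83 RPKM under the KO label, from 21, 5, 7 and 10 reads. WT library 1 stood above the other 3 libraries, which overlapped. The log2 fold change of Fgf2 was -0.69 with an SE of 0.58 (unadjusted p = 0.279, adjusted p = 0.724 by limma), and it ran from -0.06 without WT library 1 to -1.32 (unadjusted p = 0.0575 by limma) without WT library 2. The span of Fgf2 overlaps that of its antisense neighbour Nudt6, which had 3 reads in all, and the strand setting of the counting was not stated. Of the 26-base windows of its coding sequence, 36.6% also lie in Gm43439, an overlapping noncoding gene on the same strand with 0 reads in all 4 libraries, and whether reads were lost to this overlap in counting could not be traced.

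Egfr (ENSMUSG00000020122; chr11:16752203-16918158, plus strand, 28 exons), the receptor of EGF and of related ligands, had the highest ratio between the KO libraries among the 7 tested genes, 2.61-fold. It had 11.9 and 9.0 RPKM in WT and 19.1 and 7.32 RPKM in KO libraries 1 and 2, which were the highest and the lowest of the 4. From means of 10.4 ± 2.03 and 13.2 ± 8.31 RPKM (SD, n = 2 each), the log2 fold change was 0.19 with an SE of 0.53 (95% interval -1.11 to 1.49, unadjusted p = 0.733, adjusted p = 0.918 by limma). Without KO library 1 it was -0.45.

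The PDGF receptors had the highest RPKM of the set. Pdgfra (ENSMUSG00000029231; chr5:75152292-75198215, plus strand, 23 exons) gave 43.4 and 31.6 RPKM in WT and 88.2 and 43.6 RPKM under the KO label, from 262, 149, 802 and 353 reads. KO library 1 stood far above the other 3, and KO library 2 exceeded WT library 1 by a narrow margin. The means of 37.5 ± 8.35 and 65.9 ± 31.5 RPKM (SD, n = 2 each) differed by 1.76-fold. The log2 fold change was 0.73 with an SE of 0.52 (95% interval -0.54 to 2.00, unadjusted p = 0.208, adjusted p = 0.703 by limma), and it ran from 0.23 without KO library 1 to 1.23 without KO library 2.

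Pdgfrb (ENSMUSG00000024620; chr18:61045150-61085061, plus strand, 24 exons) showed the smallest ratio between the WT libraries among the 7 tested genes, 1.08-fold. It had 37.5 and 34.9 RPKM in WT, and 41.3 and 28.03 RPKM under the KO label, which lay on either side of them. The means were 36.2 ± 1.89 and 34.6 ± 9.36 RPKM (SD, n = 2 each), with a log2 fold change of -0.09 and an SE of 0.43 (95% interval -1.13 to 0.96, unadjusted p = 0.846, adjusted p = 0.958 by limma). Its sign changed without KO library 2, to 0.18. Scaling every library to the same sum of RPKM moved the median of all tested genes to 0.81, and gave 0.59 for Fgfr1 and 0.96 for Pdgfrb, which is -0.22 and 0.15 relative to that median. Fgfr4, Met and Pdgfra lay at -2.36, -0.83 and 0.97 relative to it.

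Within the PDGF receptor pair, Pdgfra made up 53.6% and 47.5% of the summed RPKM in WT and 68.1% and 60.9% under the KO label. Both KO shares lay above both WT shares. The means of 50.5% ± 4.31 and 64.5% ± 5.13 (SD, n = 2 each) were 14.0 percentage points apart (exact two-sided permutation p = 0.333, 0.556 adjusted over the 5 shares). In reads, Pdgfra held 67.9% (95% Wilson interval 63.1 to 72.3%) and 62.3% (56.1 to 68.2%) in WT, and 79.6% (77.0 to 82.0%) and 74.0% (69.9 to 77.7%) under the KO label. The intervals of WT library 1 and KO library 2 met, and those of WT library 2 met neither KO library.

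**Figure D3:**
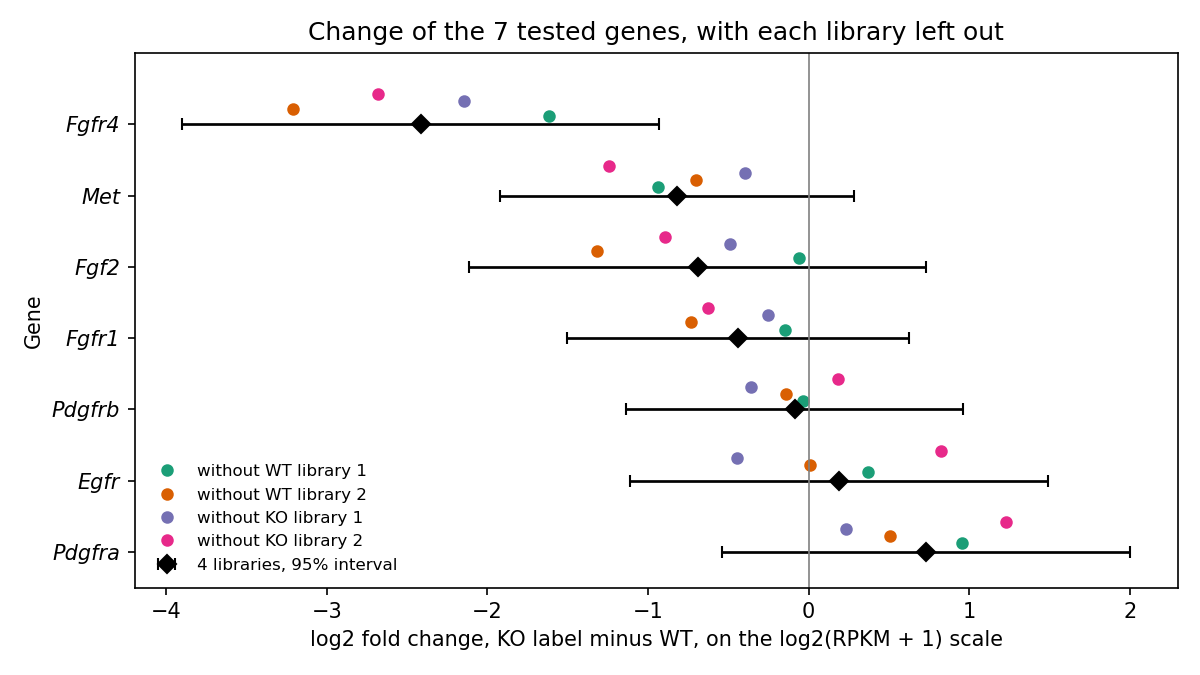
Log2 fold change of the 7 tested genes, libraries labelled KO minus WT, on the log2(RPKM + 1) scale. Black diamonds with bars are the estimates from 4 libraries with 95% intervals, and coloured dots the estimates with 1 library left out. The interval of Fgfr4 runs from -3.90 to -0.93 and lies below 0, and those of the other 6 include 0.

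The order of the levels could be read per length only. By WT mean RPKM, Pdgfra (37.5), Pdgfrb (36.2) and Fgfr1 (29.8) came first, then Fgfr4 (20.2) and Egfr (10.4), and then Met (4.79) and Fgf2 (3.35). From Pdgfra down to Egfr, and between Met and Fgf2, neighbours in this order differed by less than the larger of their SDs, whereas Egfr exceeded Met by more than both SDs together. Under the KO label Fgfr4, at 2.51 RPKM, lay beside Met at 2.41. Per kilobase of coding sequence the WT order was Fgfr1 (117.6 ± 34.3) and Pdgfra (114.8 ± 25.6), Pdgfrb (59.9 ± 3.13), Fgf2 (48.9 ± 36.8), Egfr (32.5 ± 6.32), Fgfr4 (29.9 ± 22.2) and Met (8.88 ± 1.22; SD, n = 2 each). Of neighbours in that order, Pdgfra and Pdgfrb differed by more than both SDs together and the others by less than the larger SD. Fgf2 moved most between the scales, because the length used for its RPKM was 6782 bases and its coding sequence has 465. The summed RPKM of the 8 receptors was 164.4 and 114.5 in WT and 170.8 and 109.8 under the KO label, overlapping between the groups.

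Genes with the most similar profile over the 4 libraries were listed for the 3 most deeply read members, by the root mean square difference of centred log2(RPKM + 1) values among coding genes of comparable depth. For Pdgfra these were Rnf213 (0.045), Canx (0.105) and Calr (0.113) of 205 genes compared, and KO library 1 was the highest for each. Canx and Calr encode the endoplasmic reticulum chaperones calnexin and calreticulin, and Rnf213 a large ubiquitin ligase. For Fgfr1 they were Gnai2 (0.092), Ptgfrn (0.104) and Cdc42bpb (0.106) of 680, and for Pdgfrb Nucb1 (0.043), Gapdh (0.065) and Notch2 (0.069) of 943. Profiles of 4 points that share libraries allow many close matches.

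The rest of the pathway was described from 6 lists. They hold 145 genes, all in the table, of which 120 were tested. By limma 0 were called at an adjusted p under 0.05, and at an unadjusted p under 0.05 2 were lower and 2 were higher (1.67% each way, against 4.46% and 2.86% of all tested genes). The median log2 fold change was -0.11, with 73 genes below 0 and 47 above.

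Among 24 tested receptor relatives and coreceptors 15 lay above 0, with a median of 0.27 that was 0.12 without WT library 1 and 0.10 without KO library 1. Kdr, the main receptor of vascular endothelial growth factor, had 3.31 and 4.47 RPKM in WT against 10.0 and 7.68 RPKM (log2 fold change 1.01, SE 0.38, unadjusted p = 0.0376, adjusted p = 0.672 by limma). Sdc2, a heparan sulfate proteoglycan, had 3.76 and 2.41 RPKM in WT against 6.88 and 7.37 RPKM, with a like log2 fold change of 1.01 (unadjusted p = 0.0379, adjusted p = 0.672 by limma). Axl and Sdc4 had the most reads of the list, with log2 fold changes of -0.01 and 0.04.

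Of 15 other ligands and ligand-activating proteases tested, 6 lay below 0 and 9 above, with a median of 0.34 that became -0.02 without WT library 1 and 0.58 without KO library 2. Pdgfb, whose product binds both PDGF receptors, had 10.4 and 13.3 RPKM in WT and 2.38 and 4.17 RPKM under the KO label (26, 26, 9 and 14 reads). Its log2 fold change was -1.61 with an SE of 0.40 (unadjusted p = 0.00775, adjusted p = 0.608 by limma). Plau, the urokinase that can activate HGF, had 23.1 and 43.0 RPKM in WT and 66.6 and 56.0 RPKM under the KO label (log2 fold change 0.93, SE 0.48, unadjusted p = 0.103 by limma). Its receptor Plaur stood at 10.1 RPKM in WT library 1 and between 52.7 and 84.3 RPKM in the other 3.

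Downstream of the receptors, 17 of 23 tested genes of the adaptor, Ras, Raf, MEK and ERK list lay below 0. The median of -0.33 was -0.07 when WT library 1 was left out, -0.58 when WT library 2 was, and -0.16 when KO library 1 was. Hras, 1 of the Ras GTPases, had 5.78 and 10.8 RPKM in WT and 3.54 and 1.66 RPKM under the KO label (log2 fold change -1.36, SE 0.48, unadjusted p = 0.0300, adjusted p = 0.672 by limma). Map2k1, which encodes the kinase MEK1, was at 0.34. In the PI3K, PLC gamma and Akt list 16 of 17 lay below 0, where 50% of all tested genes did. The values ranged from -0.80 to 0.09, with a median of -0.23 that moved to -0.10 on leaving out WT library 1 and to -0.54 on leaving out WT library 2, and 0 reached an unadjusted p under 0.05 by limma. Akt1 had 34.8 and 30.6 RPKM in WT and 17.8 and 26.6 RPKM under the KO label (log2 fold change -0.56, SE 0.42, unadjusted p = 0.231 by limma), and Stat3, a transcription factor placed on the same list, was at 0.09.

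The 23 negative feedback and turnover genes had a median of -0.09 (-0.02 with WT library 1 left out, -0.31 with WT library 2 left out, -0.01 with KO library 1 left out), and 0 reached an unadjusted p under 0.05 by limma. Dusp6, a phosphatase of ERK and itself a target of FGF signalling, had 67.8 and 90.1 RPKM in WT and 109.5 and 102.8 RPKM under the KO label (log2 fold change 0.44, SE 0.45, unadjusted p = 0.369 by limma). Errfi1, an inhibitor of Egfr, was at 0.31. For 18 tested ERK target genes, most of them transcription factors, the median was -0.16, turning to 0.17 with the trend on coding GC removed and coming to -0.26 without WT library 1 and -0.02 without KO library 1, and 0 reached an unadjusted p under 0.05. Egr1 had 248.2 and 180.8 RPKM in WT and 135.5 and 145.2 RPKM under the KO label (log2 fold change -0.59, SE 0.48), and Fos was at 0.29, so the members with most reads lay on either side of 0.

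**Figure D4:**
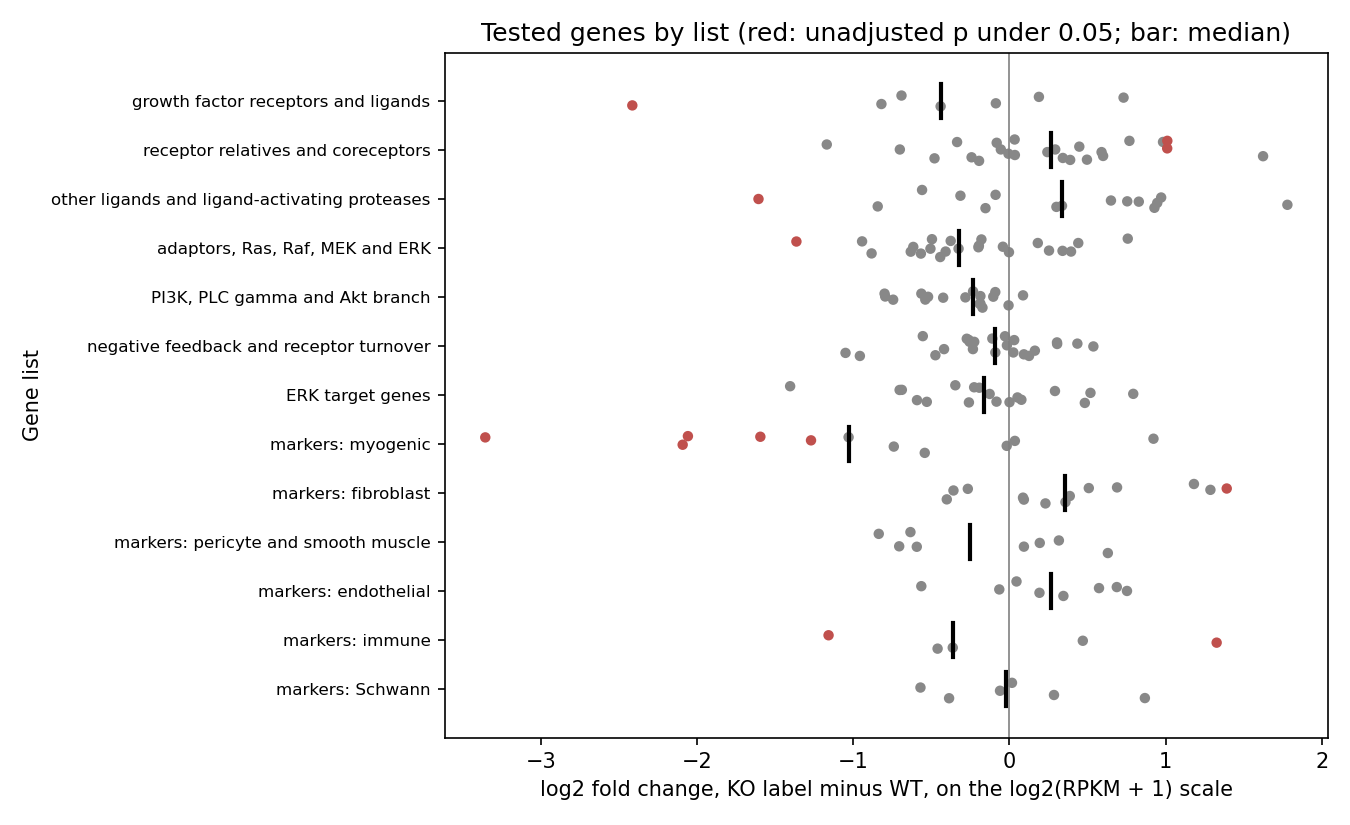
Log2 fold change of every tested gene by list, libraries labelled KO minus WT, on the log2(RPKM + 1) scale, with red points for an unadjusted p under 0.05 by limma and black bars for the medians. Medians of the receptor and pathway lists lie between -0.44 and 0.34, the myogenic markers have a median of -1.03 and the fibroblast markers one of 0.36, which is -0.02 without KO library 1.

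Markers of the cell types that such a culture can hold are given beside the receptors of those cells. In bulk libraries, fewer cells of a type and less signal per cell cannot be told apart. Of 12 myogenic markers 11 were tested, 9 lay below 0, where 50% of all tested genes did. At an unadjusted p under 0.05 by limma 5 were lower (Chrna1, Myf5, Pax7, Des and Myog), where 4.46% of all tested genes were, and 0 passed at an adjusted p under 0.05. The median log2 fold change was -1.03, and it shrank to -0.48 once the coding GC trend was taken out. Their summed RPKM was 440.5 and 312.7 in WT and 213.1 and 237.3 under the KO label, without overlap and in the direction of Fgfr4 and Met. Pax7, the gene that defines the lineage and drives the Cre, had 8.49 and 3.62 RPKM in WT and 0.941 and 1.48 RPKM under the KO label (log2 fold change -1.59, unadjusted p = 0.0195 by limma). Myod1 stood at 139.9 and 117.5 RPKM in WT and 48.6 and 79.8 RPKM under the KO label (log2 fold change -1.03, unadjusted p = 0.0780 by limma), and Sdc4, with most reads of the list beside it, at a log2 fold change of 0.04. The other markers lower at an unadjusted p under 0.05 had log2 fold changes of -1.27 (Des, muscle intermediate filament), -2.06 (Chrna1, acetylcholine receptor subunit), -2.09 (Myf5) and -3.36 (Myog). Reads were few for some of them. Myf5 had 8 and 4 in WT and 2 and 0 under the KO label, and Myog 82 and 3 against 1 and 2. The KO values of both lay under the floor of 3 reads, so their folds are poorly determined. Pax7 had 30 and 10 reads in WT and 5 and 7 under the KO label. WT library 1 was also the library with most Fgfr4, Fgf2 and Myog, at 91.0 RPKM for Myog against 0.737 to 4.26 RPKM in the other 3.

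Fibroblast markers were abundant in all 4 libraries, with a summed RPKM of 621.4 and 411.5 in WT and 1005.9 and 480.7 under the KO label over 14 genes. Of 13 tested, 10 lay above 0. Their median of 0.36 became -0.02 without KO library 1 and 0.72 without KO library 2, and it was 0.60 with WT library 1 left out and 0.16 with WT library 2 left out. Postn, the matrix protein periostin, was higher at an unadjusted p of 0.0168 by limma (log2 fold change 1.39, adjusted p = 0.650 by limma). KO library 1 was highest in this sum, as it was in Pdgfra and Egfr and also in Pdgfrb and Hgf. Dcn, which encodes the matrix proteoglycan decorin, had 459.9 RPKM in KO library 1 against 125.8 to 239.5 RPKM in the other 3. Col1a2, a chain of type I collagen, was at a log2 fold change of 0.39. Pericyte and smooth muscle markers summed to 161.9 and 128.0 in WT and 108.2 and 119.9 RPKM under the KO label, without overlap between the groups, and Tagln was at 0 throughout. Of 8 tested, 4 lay below 0 and 4 above, with a median of -0.25 (-0.10 with WT library 1 left out, -0.60 with WT library 2 left out). Gene by gene, 4 were lower and 1 higher without overlap, where 20.3% and 20.1% of all tested genes were. Acta2 and Anpep, with most reads, were at log2 fold changes of -0.59 and 0.63, beside Pdgfrb at -0.09. Endothelial markers, beside Kdr, summed to 263.5 and 393.5 in WT and 356.1 and 448.0 RPKM under the KO label, overlapping between the groups. Of 8 tested, 2 lay below 0 and 6 above, with a median log2 fold change of 0.27 and values from -0.56 to 0.75. Cdh5 and Cldn5, with most reads, were at 0.19 and 0.75. Summed immune markers (47.9 and 76.5 against 66.9 and 50.1 RPKM) and Schwann cell markers (60.4 and 18.6 against 36.9 and 27.2 RPKM) overlapped between the groups. Of the former, Itgam was at 0 throughout, and at an unadjusted p under 0.05 by limma the lysozyme gene Lyz2 was lower (log2 fold change -1.16) and the macrophage marker Adgre1 higher (1.33). Of the latter, Ngfr and Sox10 had log2 fold changes of -0.39 and 0.29. The part of cell composition in the values of the receptors was not tested.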

How the data were processed

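Libraries of 2 WT and 2 KO samples were analysed. Their titles name Polysome-Seq, but the protocol text describes RNase I digestion and purified protected fragments, so values are called ribosome-protected signal. Per the labels and the study's methods, the authors removed low-quality, rRNA and tRNA reads, mapped with TopHat2 (build mm10, which is GRCm38, per the submitters' processing notes) to Ensembl release 97 and counted with HTSeq. Strand settings and versions were not given in the sources used here. The deposited values are RPKM. The gene length column allowed 100% of values above 0 to be turned into whole reads (tolerance 0.001), with library sizes that are the authors' own and not the read totals. RNA abundance was not analysed here, and translation efficiency was left out.

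The members and lists were chosen with earlier results of these data known. Genes averaging 1 RPKM or more were tested with limma 3.58.1 (R 4.3.3; lmFit, eBayes with trend=TRUE) on log2(RPKM + 1), with Benjamini-Hochberg adjustment over all tested genes. Shares were compared by exact permutation (scipy 1.17.1). The 95% Poisson and Wilson intervals and the 3-read floor include counting error alone. Of the gene identifiers, 99.7% were found in GENCODE M21, which gave exons and coding sequences. Named genes are all members, Eif5a, genes of each list at an unadjusted p under 0.05 or otherwise the 2 with most reads, and the 3 most similar genes of the 3 members with most reads. Of these, 1 list gene is not reported here. The scripts were tested on simulated data. The alternatives were other pseudocounts, filters and scalings, limma-voom, no variance trend, a GC correction, a replicate block and leaving out each library. Figures were drawn with matplotlib 3.10.9.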

Additional observations from a re-analysis of the deposited data

How the results depend on the processing

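The count of 0 members at an adjusted p under 0.05 held under all 13 alternatives, and so did the direction of Fgfr4, Met, Pdgfra and Fgf2 where tested (Met and Fgf2 fell under the minimum of 5 RPKM). Members at an unadjusted p under 0.05 numbered 1, and 0 to 1 with each library left out: 0 without WT library 1, KO library 1 or KO library 2. Scaled to the same sum, the 1 was Pdgfra (unadjusted p = 0.0469) in place of Fgfr4. The adjusted p of Fgfr4 ran from 0.329 to 0.944 by limma and was 0.0777 by limma-voom. The 12 calls over all tested genes became 0 with all genes above 0 kept, with 0.1 as pseudocount, with a minimum of 5 RPKM, trend=FALSE, the GC trend removed, and with each library left out (0 to 0), while the genes at an unadjusted p under 0.05 numbered 225 to 791 (lower) and 205 to 809 (higher) when a library was left out, and 278 to 533 and 178 to 403 under the other settings named. By limma-voom 39 were called (611 lower and 319 higher when p was not adjusted), by the same sum 18 (98 and 1640) and by the same sum over coding genes 12 (620 and 220). With a library left out, Egfr ran from -0.45 to 0.82, Pdgfrb from -0.36 to 0.18 and Eif5a from -0.12 to 0.76. Signs reversed for Fgfr1 (0.59) and Pdgfrb (0.96) under the same sum, for Pdgfrb with the GC trend removed (0.013) and without KO library 2 (0.18), for Egfr without KO library 1 (-0.45) and for Eif5a without WT library 1 (-0.12). The median of the set became 0.59 under the same sum, as that of all genes moved to 0.81. With a library left out, the lone library of its group was assumed to vary like the other group.

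With the replicate block, 0 genes were called (at an unadjusted p under 0.05, 509 lower and 318 higher), and for Fgfr4 limma gave an unadjusted p of 0.00838 (0.541 adjusted). WT and KO libraries share only a number: their deviations correlated at 0.0575 across genes, and with 2 pairs no pairing was assumed. The shares of Fgfr4 (-35.7 to -18.1 percentage points), Fgfr1 (18.9 to 35.4) and Pdgfra (10.3 to 17.6) kept their direction with each library left out. In reads they were -14.0, 14.4 and 11.7, and per coding base -14.4, 14.9 and 11.7. Depth limits Fgfr2, Fgfr3 and Hgf, with 12 reads or fewer each.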
